A study of Mus musculus with 56 samples.

Results

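YAP1, its DNA-binding partner TEAD1 and 6 genes known as their targets or regulators (Ctgf, Cyr61, Ankrd1, Amotl2, Axl and Ajuba) were followed in mouse livers that had lost miR-122. They were taken by symbol, 8 genes of 21888 in the RNA-seq table, and Ajuba is listed there under its older symbol Jub. The livers came from mice on a 129Sv/J background per the labels. In 11 of them LoxP sites flank miR-122: 3 were uninjected (day 0), and the others received rAAV8-Ef1a-Cre, a virus that expresses the Cre recombinase from the broadly active Ef1a promoter, through the tail vein, and were taken at day 21 (3 mice), day 45 (3 mice), day 100 (1 mouse) and day 200 (1 mouse). The last 2 mice were joined into 1 group, and 3 mice carried a germline miR-122 knockout in place of floxed alleles. The floxed mice were adults when injected per the study, and no sex is given in the sources used here. Day 0 mice received no virus, so the effect of the vector and of Cre cannot be told apart from that of miR-122 loss, and the knockout also differs from day 0 in the line of mice.

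The Hippo pathway is a kinase cascade in which MST (Stk3, Stk4) and LATS kinases phosphorylate YAP and its relative TAZ (Wwtr1) and keep them out of the nucleus. When the cascade is off, YAP and TAZ enter the nucleus and bind TEAD factors, which recognise the DNA letters GGAATG. In liver this pathway is known for its control of organ size, of the ductal identity of epithelial cells and of the response of stellate cells to injury. YAP is controlled mainly through its phosphorylation and location, neither of which is seen in RNA.

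The letters GGAATG were looked up in the members' promoters because TEAD factors read them. Of the 8 genes, 6 had a RefSeq promoter of 300 bases (250 before and 50 after the gene's start, GRCm38.p6), and all 6 held the letters on 1 strand or the other. Of 32851 promoters of the same length, 14.7% held them. Ctgf and Tead1 had no entry. Each sequence below is 30 bases on the gene's own strand, 5′ to 3′, with the motif in capitals (CATTCC is GGAATG read on the opposite strand).
Cyr61 (chr3:145650071-145650100, minus strand): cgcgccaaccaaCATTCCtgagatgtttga
Ankrd1 (chr19:36119950-36119979, minus strand): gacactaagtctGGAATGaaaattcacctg
Axl (chr7:25788949-25788978, minus strand): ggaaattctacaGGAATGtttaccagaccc
Ajuba (chr14:54577830-54577859, minus strand): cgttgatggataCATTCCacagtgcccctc
Amotl2 (chr9:102717727-102717756, plus strand): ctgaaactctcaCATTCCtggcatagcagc
Yap1 (chr9:8004720-8004749, minus strand): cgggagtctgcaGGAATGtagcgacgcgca
Ankrd1 and Ajuba each held 2 matches, of which 1 is shown. A match describes the letters and is not evidence of binding.

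RNA levels are FPKM, fragments per kilobase of transcript scaled to library size, which are scaled for gene length. The smallest steps between low values place the depth roughly between 28.8 and 55.0 in floxed livers and between 24.0 and 34.7 in knockout livers, in units of 1e6 fragments. Differences are on the log2(FPKM + 1) scale, which understates changes of low genes, with the standard error (SE) and a Benjamini-Hochberg adjusted p from limma across 11354 genes whose mean reached 1 FPKM. All 8 members passed that filter, Ankrd1 only through the groups where it was high, and a gene was called when adjusted p was under 0.05. The labels name replicates by the letters A to C, given here in that order, and p-values measure the spread between these libraries. Knockout library C stood apart from the other 2 knockout livers. Its correlation with them was 0.881 and 0.895, against 0.927 to 0.955 with the floxed livers. Libraries A and B correlated at 0.986 with each other. With the floxed livers, A correlated at 0.806 to 0.912 and B at 0.811 to 0.926. These correlations do not show which knockout libraries are the unusual ones. The knockout differences of the members are therefore also given without library C below. That fit called 62.5% of all genes against day 0 (33.8% with library C). The row for the miR-122 precursor is listed at 0 in every library and checks no label. Aldoa, a known miR-122 target, was at 62.1 to 73.1 FPKM at day 0, 153 to 397 FPKM after Cre and 500, 440 and 245 FPKM in knockout livers A, B and C. The library labelled knockout C thus lay above day 0 but within the range of the livers after Cre, and whether its label is right was not tested. Of 7 hepatocyte markers, Alb is listed at 0 in every library and Trf in 11 of 14, with 6279 to 12616 FPKM in the others, and the summed FPKM of the remaining 5 was between 12908 and 25357. In bulk liver, fewer cells of a type and less RNA per cell cannot be told apart.

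At day 0 the members spanned a wide range of levels per length. Cyr61 was highest on average (38.5 ± 42.3 FPKM, SD, n = 3), followed by Yap1 (20.1 ± 2.14 FPKM), and the ranges of these genes overlapped. Amotl2 (6.42 FPKM) and Axl (5.77 FPKM) overlapped with each other but lay below Yap1 and above Ajuba (3.16 FPKM) in each mouse. Ajuba overlapped with Ctgf (2.14 FPKM), and Ctgf with Tead1 (1.56 FPKM). Ankrd1 was lowest, at 0.416 FPKM, and lay below Tead1 in each mouse. At days 100 and 200 the mean of Ctgf (23.4 FPKM) stood second to that of Cyr61 (36.3 FPKM), and Ankrd1 (7.61 FPKM) stood above Tead1 (4.85 FPKM).

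**Figure D1:**
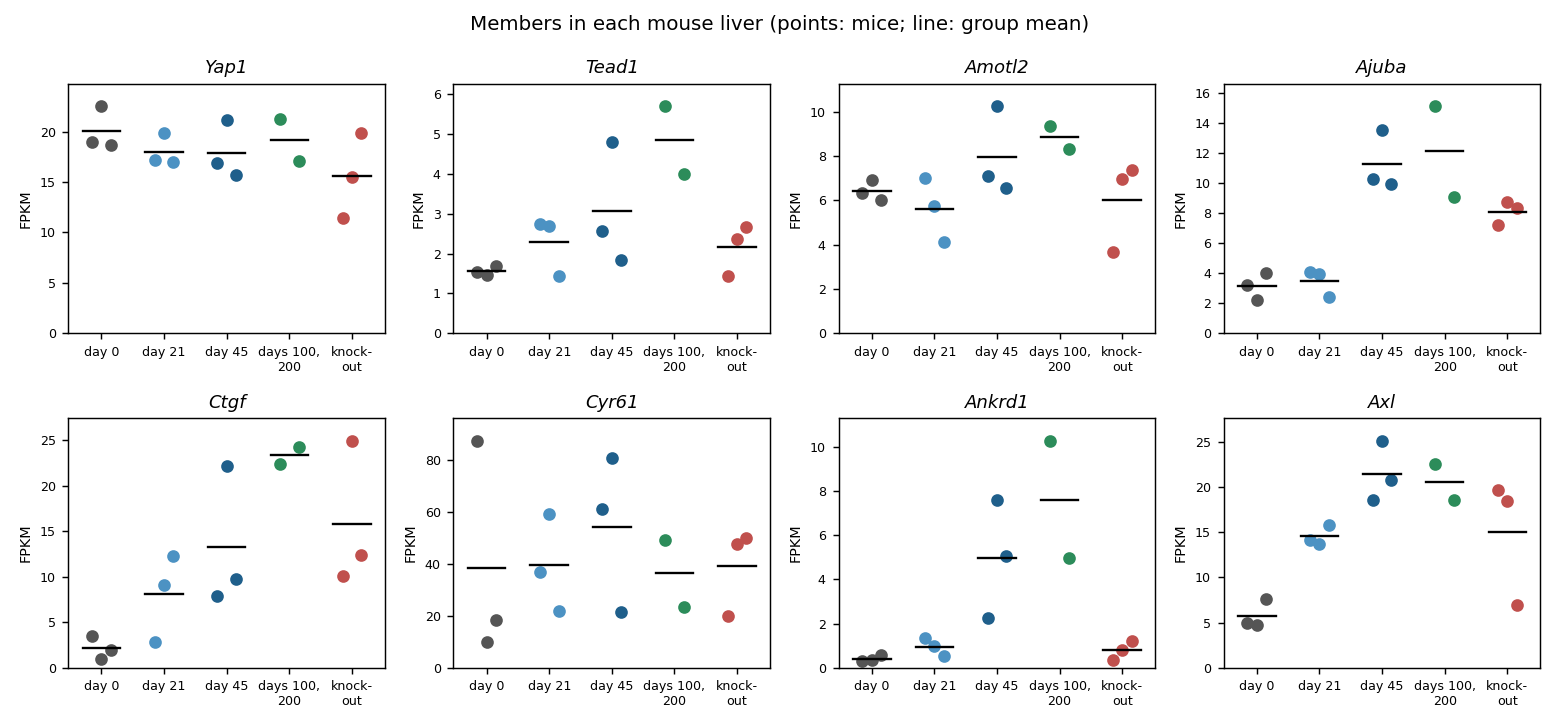
FPKM (vertical axes, from 0) of the 8 genes in each of the 14 livers, by group, with each mouse as a point and the group mean as a line. Ctgf, Ankrd1, Axl and Ajuba lie above day 0 in every day 45 mouse, Yap1 stays between 11.4 and 22.5 FPKM throughout, and Cyr61 at day 0 ranges from 10.1 to 87.1 FPKM.

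Yap1, the coactivator itself (chr9:7932001-8004596, mm9), showed no called change in any comparison of all mice. Its FPKM was 19.0, 22.5 and 18.7 at day 0, 17.2, 19.8 and 17.0 at day 21, and 16.9, 21.2 and 15.7 at day 45. The day 100 liver had 21.3 FPKM, the day 200 liver 17.1 FPKM, and the knockout livers 11.4, 15.5 and 19.9 FPKM. The groups overlapped throughout. At day 45 the log2 difference from day 0 was -0.16, with a 95% interval from -0.58 to 0.26, and in the knockout it was -0.37 (SE 0.19, limma adjusted p = 0.147). Without knockout library C the knockout difference was -0.55 (limma adjusted p = 0.0143).

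Tead1, a factor that carries YAP to DNA (chr7:119822834-120050319, mm9), was higher late after excision. It measured 1.54, 1.46 and 1.68 FPKM at day 0, 2.74, 2.68 and 1.44 FPKM at day 21, and 2.56, 4.81 and 1.84 FPKM at day 45. The day 100 and day 200 livers had 5.70 and 4.00 FPKM, and the knockout livers 1.44, 2.36 and 2.66 FPKM. Every day 45, day 100 and day 200 liver lay above every day 0 liver, while day 21 and knockout livers overlapped with them. The difference from day 0 was called at days 100 and 200 (1.18 on the log2 scale, SE 0.29, limma adjusted p = 0.00905) but not at day 45 (0.60, SE 0.26, limma adjusted p = 0.114). Without the day 100 liver the late difference was 0.97 and was not called. The knockout difference was 0.28, and 0.16 without library C.

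Ctgf, a secreted matrix-associated protein known as a fibrosis gene (chr10:24315248-24318488, mm9), rose at day 45, at days 100 and 200 and in the knockout. At day 0 it measured 3.45, 0.985 and 1.98 FPKM. It reached 2.88, 9.05 and 12.3 FPKM at day 21 and 7.92, 22.2 and 9.79 FPKM at day 45. The day 100 and day 200 livers had 22.4 and 24.3 FPKM and the knockout livers 10.1, 24.9 and 12.4 FPKM. Apart from 1 day 21 liver, each liver after Cre and each knockout liver lay above all day 0 livers. The mean rose 6.23-fold at day 45 (log2 difference 2.14, SE 0.49, limma adjusted p = 0.00708), 10.9-fold at days 100 and 200 (3.03, SE 0.55, limma adjusted p = 0.00138) and 7.39-fold in the knockout (2.40, SE 0.49, limma adjusted p = 0.00450). Without library C the knockout difference was 2.51. The day 21 difference of 1.43 was not called (limma adjusted p = 0.102).

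Cyr61, a close relative of Ctgf in the CCN family and like it a classic YAP target (chr3:145309935-145312949, mm9), showed no called change. Its FPKM was 87.1, 10.1 and 18.3 at day 0, 37.0, 59.1 and 21.96 at day 21, and 60.9, 80.4 and 21.5 at day 45. The day 100 and day 200 livers had 49.0 and 23.5 FPKM, and the knockout livers 20.0, 47.4 and 49.99 FPKM. The day 0 mice alone spread 8.66-fold, so that they spanned every other liver. The day 45 difference was 0.86 with a 95% interval from -0.68 to 2.41, which holds both no change and changes of the size seen in Ctgf. The immediate early gene Fos, an AP-1 subunit that responds within minutes to stimuli, spread in the same order at day 0, with 72.1, 0.520 and 19.8 FPKM. Egr1, another immediate early gene, had 109, 4.65 and 72.9 FPKM in those mice. In the knockout the difference was 0.49, and 0.26 without library C. Whether handling or sampling time sets the Cyr61 level was not tested.

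**Figure D2:**
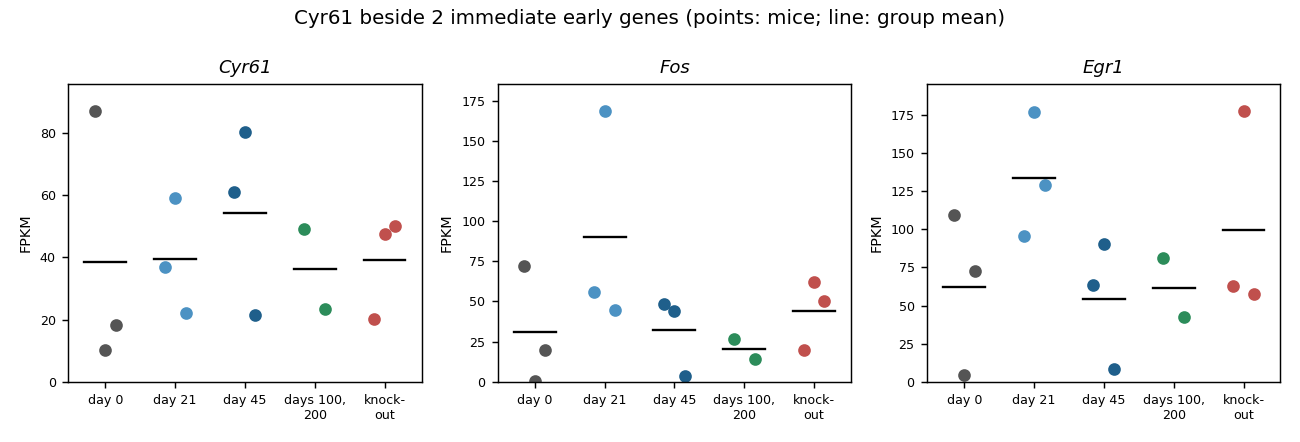
FPKM (vertical axes, from 0) of Cyr61, Fos and Egr1 in each liver by group, with points for mice and lines for group means. In the day 0 group the liver with 87.1 FPKM of Cyr61 also has the highest Fos (72.1 FPKM) and Egr1 (109 FPKM), and the liver with 10.1 FPKM the lowest of both.

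Ankrd1, a nuclear ankyrin-repeat protein best known from muscle (chr19:36186455-36194334, mm9), rose after excision and was not called in the knockout. It was barely detected at day 0, with 0.318, 0.355 and 0.575 FPKM, and at day 21 it measured 1.37, 1.00 and 0.517 FPKM. At day 45 it reached 2.27, 7.58 and 5.06 FPKM, and the day 100 and day 200 livers had 10.3 and 4.95 FPKM. The knockout livers had 0.370, 0.788 and 1.21 FPKM, all below every day 45 liver. The mean was 11.9-fold higher at day 45 (log2 difference 1.97, SE 0.34, limma adjusted p = 0.00157) and 18.3-fold higher at days 100 and 200 (2.54, SE 0.38). Its mean was under 1 FPKM at day 0, at day 21 and in the knockout, and without a filter on low values the day 45 call was kept (limma adjusted p = 0.00384). Knockout livers were 0.31 above day 0 (95% interval -0.42 to 1.04), and 0.15 above it without library C. The direct comparison of knockout with day 45 gave -1.66 (SE 0.34, limma adjusted p = 0.0155), and this call was lost without day 45 mouse B or C or without knockout mouse A or B, with differences of -1.34 to -1.67. Without library C it was -1.82 and was called. Of 7 striated muscle markers, none passed the filter, and their summed FPKM was 0.407 to 0.525 at day 0, 1.04 to 1.61 at day 45, 1.08 to 1.34 at days 100 and 200 and 0.135 to 0.624 in the knockout. In the floxed livers most of that sum was Tnnt2, a cardiac troponin, with 0.372 to 0.424 FPKM at day 0, 0.709 to 1.32 FPKM at day 45 and 0.031 to 0.267 FPKM in the knockout, and its part in the Ankrd1 result was not tested.

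Axl, a receptor tyrosine kinase of the Tyro3, Axl and Mertk family (chr7:26541519-26573752, mm9), was the 1 member called at day 21. Its FPKM was 4.90, 4.77 and 7.63 at day 0, 14.1, 13.7 and 15.8 at day 21, and 18.5, 25.1 and 20.7 at day 45. The day 100 and day 200 livers had 22.5 and 18.5 FPKM. Every liver after Cre lay above every day 0 liver. The knockout livers had 19.6, 18.4 and 6.95 FPKM, and the last of these overlapped with day 0. The log2 difference was 1.22 at day 21 (SE 0.31, limma adjusted p = 0.0310), 1.74 at day 45 and 1.69 at days 100 and 200. In the knockout it was 1.14 (SE 0.31, limma adjusted p = 0.0151), and without library C 1.59. The day 21 call was lost when any 1 of 5 mice (all but day 0 mouse C) was left out, and the knockout call when day 0 mouse B, knockout mouse A or knockout mouse B was. Macrophages express Axl, and the summed FPKM of 7 macrophage markers was 103 to 177 at day 0, 230 to 253 at day 21 and 316 to 354 at day 45. It was 213 and 169 in the day 100 and day 200 livers, where Axl stayed at 22.5 and 18.5 FPKM. In the knockout that sum was 258 and 179 in the livers with 19.6 and 18.4 FPKM of Axl and 106 in the liver with 6.95 FPKM, and its part in the Axl result was not tested.

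Ajuba, a LIM-domain scaffold that binds LATS kinases and restrains them (chr14:55186309-55196253, mm9), rose between day 21 and day 45. It measured 3.23, 2.22 and 4.03 FPKM at day 0 and 4.07, 3.96 and 2.39 FPKM at day 21. At day 45 the livers had 10.3, 13.5 and 9.96 FPKM, at day 100 and day 200 15.1 and 9.09 FPKM, and in the knockout 7.22, 8.73 and 8.34 FPKM. Day 21 overlapped with day 0, and every later liver and every knockout liver lay above both. The difference from day 0 was 1.57 at day 45 (SE 0.23, limma adjusted p = 0.000805), 1.64 at days 100 and 200 and 1.15 in the knockout (1.13 without library C). Day 45 against day 21 gave 1.47 (SE 0.23, limma adjusted p = 0.0291), a call that was kept with day 45 mouse A left out and lost with any other mouse of these groups left out, with differences of 1.28 to 1.57.

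Amotl2, an angiomotin family protein that binds and restrains YAP and is itself a YAP target (chr9:102620134-102635747, mm9), had no called change. Its FPKM was 6.31, 6.94 and 6.001 at day 0, 7.00, 5.75 and 4.12 at day 21, 7.11, 10.3 and 6.55 at day 45, and 3.65, 6.98 and 7.39 in the knockout. The day 100 and day 200 livers, with 9.37 and 8.34 FPKM, lay above all day 0 livers. The late difference was 0.41 with a 95% interval from -0.17 to 0.99. In the knockout it was -0.13, and -0.28 without library C.

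**Figure D3:**
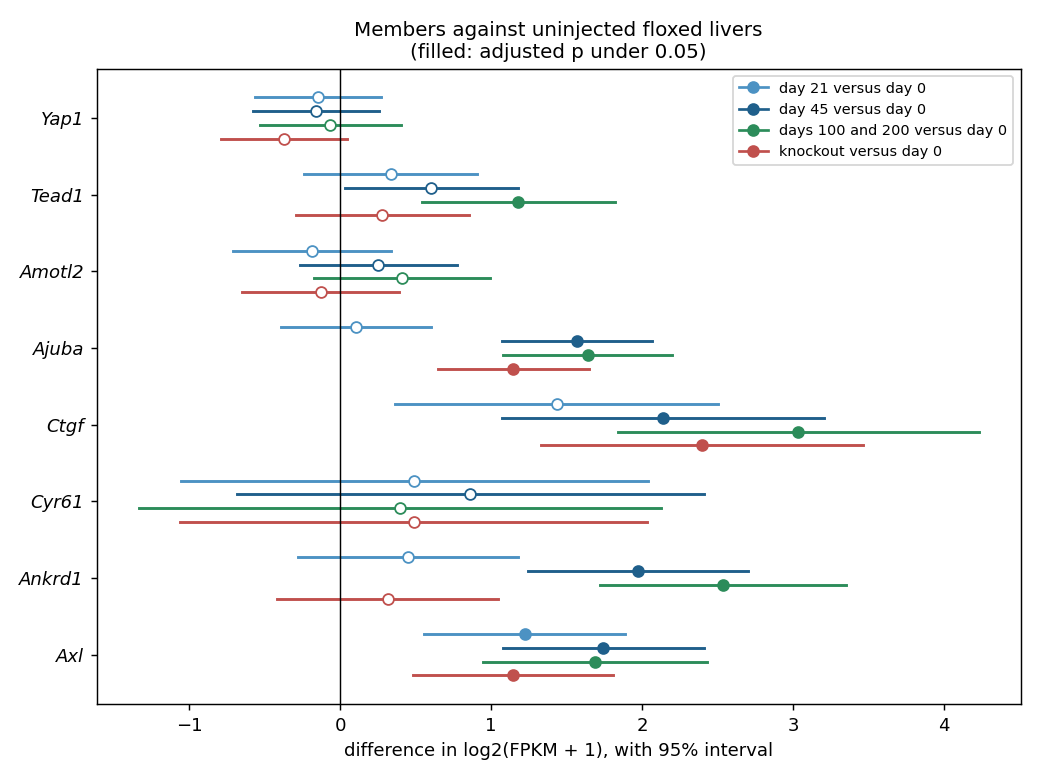
Difference in log2(FPKM + 1) from day 0 (horizontal axis) with its 95% interval for each of the 8 genes in 4 comparisons, filled where limma's adjusted p was under 0.05. Ctgf reaches 3.03 at days 100 and 200, Ankrd1 is 1.97 at day 45 and 0.31 in the knockout, and all intervals of Yap1, Cyr61 and Amotl2 include 0.

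Counted together, 1 of the 8 members was called higher at day 21, when 6.2% of all genes were called higher and 1.42% lower. At day 45 the count was 4, against 23.7% higher and 2.99% lower over all genes, and at days 100 and 200 it was 5, against 28.4% and 3.21%. In the knockout 3 were called higher, against 19.3% higher and 14.5% lower. Without library C 3 were called higher and 1 (Yap1) lower, 4 of 8 where 62.5% of all genes were called. With all mice, in these 4 comparisons no member was lower, either at an adjusted or at an unadjusted limma p under 0.05. Every mouse lay above every day 0 mouse for 1 member at day 21 (25.2% of all genes), 5 at day 45 (40.5%), 6 at days 100 and 200 (52.9%) and 2 in the knockout (21.1%). For day 45 against day 21 the count of calls was 1 (Ajuba), where 0.273% of all genes were called higher, and 3 members did not overlap (27.9%). For the knockout against day 45 it was 1 lower (Ankrd1), where 8.23% were, and 2 lay below in every mouse (20.6%). The median difference of the 8 at day 45 was 1.22, beside 0.20 over all genes tested. The 4 comparisons with day 0 share its livers, and the other 2 share livers with them and each other, so the counts are not independent.

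Of a 22-gene signature of YAP and TEAD targets, which includes Ctgf, Cyr61, Ankrd1, Amotl2 and Axl, 20 genes passed the filter on low values. At day 45, 13 were called higher and none lower, also at an unadjusted limma p under 0.05, with a median of 0.78, where 23.7% of all genes were called higher and their median was 0.20. Beside the members these included Ccdc80, a secreted matrix protein (1.95), Myof, a membrane repair protein (1.54), Tgfb2, a fibrogenic ligand (0.91), F3, tissue factor (0.80), Arhgef17 (0.81), Asap1 (0.76), the phosphatase Ptpn14 (0.73) and the RNA-binding protein Rbms3 (0.69). Of the 20 genes, 6 had a day 0 mean under 1 FPKM and passed the filter through other groups, and all 6 (Ankrd1, Myof, Tgfb2, Arhgef17, Ptpn14 and Rbms3) are among the 13, so the count is no support for the list. The count was 6 without day 45 mouse B and 8 without day 0 mouse C. Igfbp3, which binds insulin-like growth factors, was at -0.09 and was not called. At days 100 and 200, 12 were called higher (28.4% of all genes), and in the knockout 7 (19.3%), among them Ccdc80 (1.15), Myof (0.93) and Tgfb2 (0.86). The same 6 genes with a day 0 mean under 1 FPKM are among the 12, and 3 of them (Arhgef17, Myof and Tgfb2) are among the 7. These counts are therefore no support for the list either. The knockout count was 2 without knockout mouse B, 3 without knockout mouse A or day 0 mouse B, and 6 higher with 1 lower without library C, in the fit that called 62.5% of all genes. At day 21, when 6.2% of all genes were called higher, there were 4: Axl, Myof (1.00), Ccdc80 (1.00) and Gadd45a, a DNA damage response gene (1.66), but 0 to 2 with any 1 mouse of these groups left out. Of the 4, Myof passed the filter through other groups.

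Of 32 Hippo pathway genes, which include Yap1, Tead1, Ajuba and Amotl2, 28 passed the filter. At day 45, 12 were called higher and none lower, also at an unadjusted limma p under 0.05, with a median of 0.51, against 23.7% and 0.20 over all genes. Of the 12, 3 (Tead2, Frmd6 and Ptpn14) had a day 0 mean under 1 FPKM and passed through other groups. Upstream genes that restrain YAP were among them: Sav1, the scaffold of the MST kinases (1.13), the FERM-domain protein Frmd6 (0.85), the kinase Map4k4 (0.91), Ptpn14 (0.73) and Amot, which holds YAP outside the nucleus (1.08). So were Wtip, of the same protein family as Ajuba (1.17), the coactivator Wwtr1 (1.12) and Tead2 (1.22). The core kinases were not called, with Lats1 at 0.02, Lats2 at 0.31, Stk3 at 0.25 and Stk4 at 0.22, and neither was Tead3 (-0.02). Wwtr1 measured 3.45, 3.95 and 4.42 FPKM at day 0 and 8.96, 13.1 and 7.69 FPKM at day 45. At day 21 3 were called higher (6.2% of all genes), and 0 or 1 with any 1 mouse of these groups left out. At days 100 and 200 16 were called higher (28.4% of all genes), and 6 without the day 100 mouse. Tead2, Frmd6 and Ptpn14 are again among the 16. In the knockout 7 of the 28 were called higher, a share near the 19.3% of all genes, and the count was 4 without knockout mouse B. Tead2 and Frmd6 are among the 7. Without knockout library C 5 were called higher and 8 lower, 13 of 28 where 62.5% of all genes were called in either direction.

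**Figure D4:**
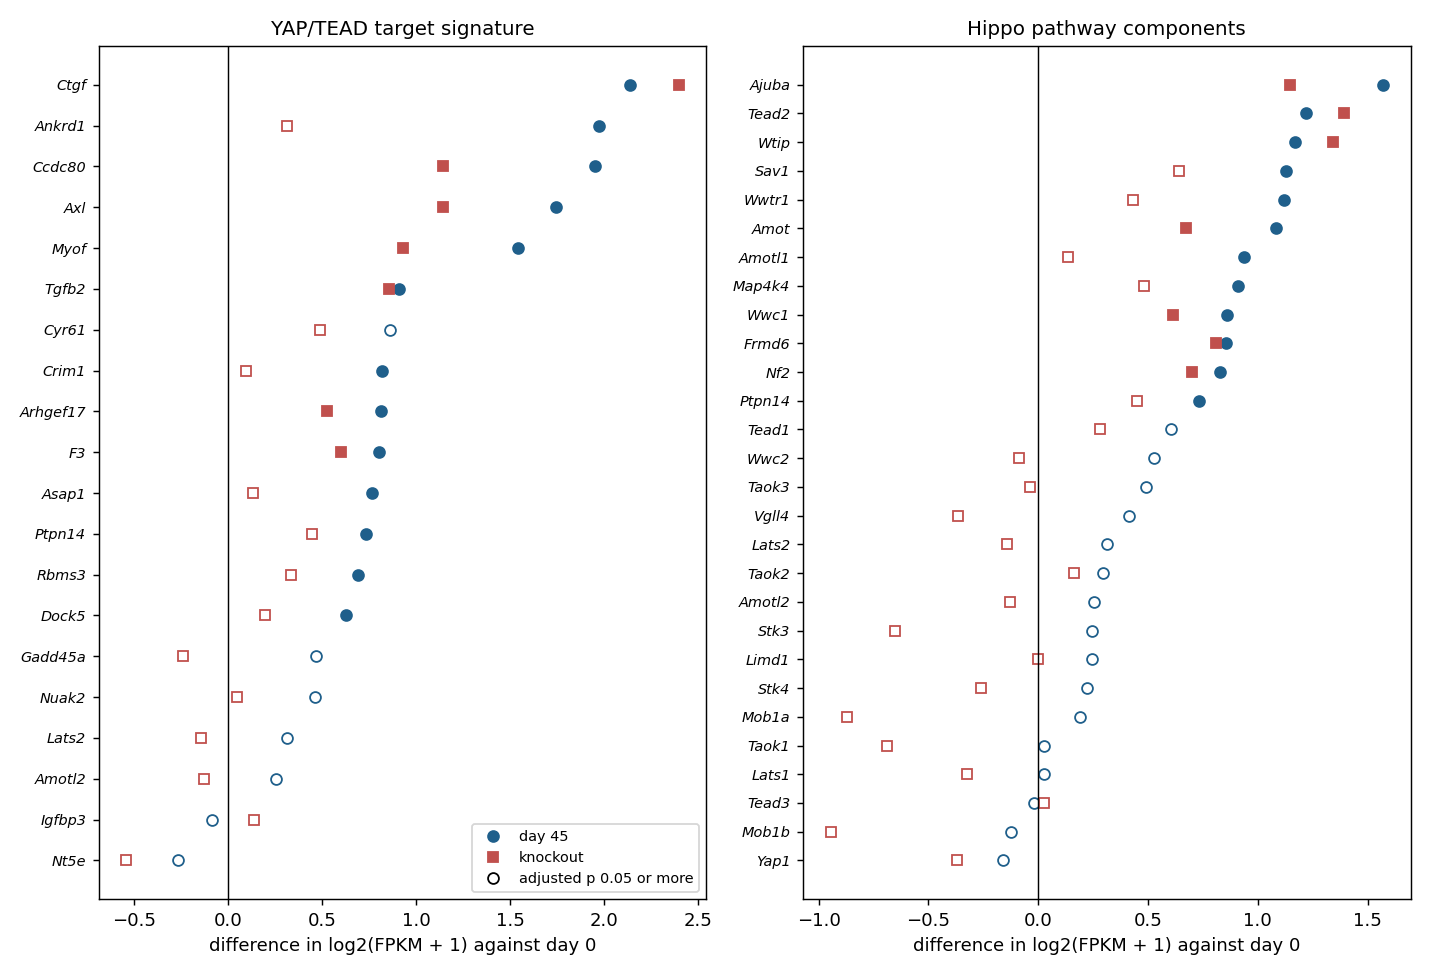
Difference in log2(FPKM + 1) from day 0 (horizontal axes) of the 20 signature genes and 28 Hippo pathway genes that passed the filter, at day 45 (circles) and in the knockout (squares), filled where limma's adjusted p was under 0.05. At day 45, 13 and 12 genes are filled, and in the knockout 7 and 7.

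Relatives and partners of the members moved as follows. Wisp2, another CCN gene, was higher at day 45 (2.05) and in the knockout (1.81). Its mean was 0.163 FPKM at day 0, and it passed the filter through other groups. Knockout livers A, B and C had 3.60, 7.97 and 0.645 FPKM of Wisp2. The CCN genes Nov, Wisp1 and Wisp3 did not pass the filter. Gas6, the ligand of Axl, rose from 28.7, 12.2 and 23.3 FPKM at day 0 to 81.5, 142 and 90.8 FPKM at day 45 (2.27, limma adjusted p = 0.00137). The related receptor Mertk rose at day 45 (0.82) and was at -0.13 in the knockout, where Pros1, another ligand of the family, was lower (-0.63). Among genes known to rise in livers with active YAP, Spp1, a secreted protein of bile duct cells, went from 40.9, 45.2 and 54.6 FPKM to 383, 1259 and 654 FPKM at day 45. Sox9, a ductal transcription factor (1.15), the Notch ligand Jag1 (0.93) and the mitotic gene Birc5 (1.34) were also higher. These are 4 of the 5 tested genes of that list, where 23.7% of all genes were called higher. The other, Notch2, was not called (mean 5.38 FPKM at day 0 and 7.34 FPKM at day 45). In the knockout 3 of the 5 were called higher (19.3% of all genes). Sox9, at a mean of 0.702 FPKM at day 0, passed the filter through other groups. Spp1, Sox9 and Birc5 are counted again among the markers below.

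Markers of several other cell types were higher in the same livers. At day 45, when 23.7% of all genes were called higher, 9 of 10 stellate cell and fibroblast markers, all 5 tested cholangiocyte markers and 6 of 7 macrophage markers were called higher, as were all 5 tested lymphocyte markers and all 4 tested proliferation genes. Of the endothelial markers 3 of 7 were called higher, of the hepatocyte markers 1 of 6 (Cyp3a11), and of the mesothelial markers 0 of 3 (Gpm6a alone had an unadjusted limma p under 0.05). The 6 hepatocyte markers include Trf, which was listed at 0 in every day 45 liver and carries no usable value. Among the tested genes of these lists, Col1a1, Sox9, Vwf, Cd3e, Cd8a, Cd79a, Ms4a1, Mki67 and Top2a had a day 0 mean under 1 FPKM. They passed the filter through other groups, so the counts of their lists are no support for those lists. The hepatocyte marker Apoa1 lay below day 0 in every day 45 mouse (-0.65, limma adjusted p = 0.110) and was called lower at days 100 and 200 (-0.94, limma adjusted p = 0.0357). The summed FPKM of the stellate list was 146 to 199 at day 0, 405 to 676 at day 45, 668 to 678 at days 100 and 200 and 217 to 331 in the knockout. All 10 stellate markers were called higher at days 100 and 200 (28.4% of all genes) and 6 of 10 in the knockout (19.3%), among them the collagens Col1a1 (2.30), Col1a2 (1.93) and Col3a1 (1.79), while Dcn, a large part of the sum, was at 0.05 in the knockout. The cholangiocyte sum was 46.1 to 59.2 at day 0 405 to 1331 at day 45, 1921 to 2921 at days 100 and 200 and 552 to 795 in the knockout, of which Spp1 made up most, and all 5 tested markers were called higher in both of the last 2 groups as well. Day 45 mouse B had the highest level in its group of all 8 members, the uncalled Yap1, Cyr61 and Amotl2 included, and also the highest stellate and cholangiocyte sums. The part of cell composition in the members' changes was not tested.

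The genes most like each member were ranked by Pearson's r of log2(FPKM + 1) over the 14 livers, which share their condition and are therefore not independent points. Axl was followed most closely by Lgmn (r = 0.990), Cd97 (0.987) and Cd72 (0.985). Ctgf was nearest to Arf6 (0.968), Ankrd1 to Btrc (0.964), Tead1 to Zfp704 (0.968), Ajuba to Dab2ip (0.958), Yap1 to Zfp871 (0.920) and Amotl2 to Gca (0.912). Cyr61 had the weakest neighbours, with Lhx2 at 0.802 and Fos at 0.787.

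None of the 8 genes is in the study's list of predicted miR-122 targets. Yap1 is in its list for miR-21, Amotl2 in that for miR-30 and Tead1 in that for miR-410. These mature microRNAs (RefSeq, GRCm38.p6) are shown with the seed, bases 2 to 8, in capitals because that stretch pairs with the target.
miR-21a-5p: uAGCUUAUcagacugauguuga
miR-30a-5p: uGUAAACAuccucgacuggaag
miR-410-3p: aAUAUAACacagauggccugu
Matches to the seed (8mer and 7mer-m8, the former followed by an A) or to its bases 2 to 7 followed by an A (7mer-A1) in the longest annotated 3′ UTR (GENCODE vM1, mm9) are in capitals in the following 30-base stretches, 5′ to 3′ on the gene's strand. Yap1 and Amotl2 held 1 match each, both 8mers, and Tead1 held 3 (2 7mer-m8 and 1 7mer-A1), of which 1 7mer-m8 is shown.
Yap1 (chr9:7932991-7933020, minus strand): gaattaactctgtgtATAAGCTAtgaagta
Amotl2 (chr9:102635430-102635459, plus strand): ctggttcatgtacgtTGTTTACAaagataa
Tead1 (chr7:120044834-120044863, plus strand): ttagtctcagttacaGTTATATtgctatga
Small RNA libraries of the 11 floxed livers gave the microRNA levels. miR-122 made up 66.4% ± 7.06 (SD, n = 3) of microRNA reads at day 0, 11.3% ± 2.70 at day 21 and 0.839% ± 0.426 at day 45, and 4.46% and 19.1% in the day 100 and day 200 livers. In RPM of the reads other than miR-122, miR-410 was at 0 in all day 0 livers, 0, 4.61 and 18.8 at day 21, 12.6, 31.0 and 47.4 at day 45, and 232 and 35.2 in the day 100 and day 200 livers. In miR-21 the uninjected livers spread widely, from 16960 to 223886 RPM, which spans all but 1 of the later livers.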

How the data were processed

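Poly-A RNA of 14 mouse livers was sequenced in pairs. The authors aligned reads to mm9 with TopHat, computed FPKM with Cufflinks 2.2.1 (quartile scaling of libraries, ribosomal, snoRNA and mitochondrial sequences removed) and deposited 1 table, 22308 rows for 21888 symbols. Rows of a symbol were summed here. Small RNA values were deposited by the authors as RPM, microRNA reads scaled to library size (Bowtie 0.12.7), with 1 added, which was subtracted. The FPKM carry no counts, so no count test was run.

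log2(FPKM + 1) was fitted with limma 3.58.1 in R 4.3.3 (all 5 groups in 1 fit, trended moderation, mean of 1 FPKM or more), in place of the Cuffdiff test of the study, with adjusted p under 0.05 as the threshold. In simulated data for day 45 versus day 0 with 200 of 11354 genes changed, 47.5%, 96% and 99% were recovered at log2 changes of 1, 2 and 4. False calls numbered 4, 10 and 8. In the real comparison far more genes were called (2688 higher alone), which loosens the adjusted threshold, so these shares do not give the power in these data. The members and gene lists were chosen with earlier results of these data known. Named genes are all 8 members, up to 8 other genes per pathway list by their largest called difference from day 0 (day 45, late or knockout), and the 3 most correlated genes per member among the genes tested. Genes named without such a call, and Fos and Egr1 beside Cyr61, were picked with their values in view. Small RNA libraries other than those of the 11 floxed livers were not used here. Alternatives were other pseudocounts, filters, centring, moderation, sample sets, a replicate block and each mouse left out.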

Additional observations from a re-analysis of the deposited data

Results flagged for a closer look

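Ajuba differed between 2 times after Cre: its level at day 45 was 1.47 above that at day 21 on the log2 scale (limma, adjusted p = 0.0291, higher in 3 of 3 mice), while day 21 was 0.10 above day 0. Ankrd1 differed between the germline knockout and day 45: the difference was -1.66 (limma, adjusted p = 0.0155, lower in 3 of 3 mice). Groups held at most 3 mice, so no mouse was tested as standing apart from its group. The correlations given above for the knockout libraries are a description, not such a test.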

How the results depend on the processing

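The call counts of the members at day 45, at days 100 and 200 and in the knockout stayed within 1.5 times of the reported ones under every alternative run. Of 696 recomputed member differences 649 kept their direction and their side of the threshold. Without a filter on low values, the members called fell to 0 at day 21 and 0 for day 45 against day 21, and at day 21 the signature and Hippo counts were 1 and 1. The filter at 0.1 FPKM gave 1 Hippo gene at day 21. Leaving days 100 and 200 out of the fit gave 2 signature and 1 Hippo genes at day 21. Fits of the 2 groups alone called 4 signature and 4 Hippo genes in the knockout, 0 members for day 45 against day 21 and 0 for the knockout against day 45. Centring on the median log ratio moved the median gene by -0.24 at day 45 and -0.34 at days 100 and 200, and turned Yap1 in the knockout against day 45 to 0.0062. The replicate letters do not pair the mice (median correlation of deviations 0.02 for the same letter and 0.05 for other letters). With the replicate block, members called were 0 at day 21 and 0 for day 45 against day 21, and the signature and Hippo counts at day 21 were 1 and 0.

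With each mouse left out in turn, members called ranged from 0 to 1 at day 21, from 0 to 2 for day 45 against day 21 and from 0 to 1 for the knockout against day 45. The signature count ranged from 0 to 2 at day 21, from 6 (without day 45 mouse B) to 12 at day 45 and from 2 (without knockout mouse B) to 7 in the knockout. The Hippo count ranged from 0 to 1 at day 21, from 6 (without the day 100 mouse) to 14 at days 100 and 200 and from 4 to 13 in the knockout. Differences that changed sign were all of uncalled values. Cyr61 ranged from -0.14 to 1.36 at day 21, from -0.24 to 1.26 late, from -0.15 to 1.35 in the knockout and from -0.0045 to 0.92 for day 45 against day 21. For the knockout against day 45, Cyr61 ranged from -0.93 to 0.038 and Ctgf from -0.10 to 0.67. Ajuba at day 21 ranged from -0.069 to 0.29, Amotl2 in the knockout from -0.28 to 0.14, Yap1 late from -0.22 to 0.085, and for day 45 against day 21 Yap1 ranged from -0.13 to 0.069 and Tead1 from -0.022 to 0.50. The cause of these changes was not tested.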
